A study of Mus musculus with 2 samples.

Results

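The 8 genes described here encode receptors and ligands of T cell costimulation. Cd28, Icos, Cd40lg, and Cd27 form the T cell side, and Cd80, Cd86, Icosl, and Cd40 form the side of the antigen-presenting cells. They were chosen by name from the 20299 genes of the count table, all 8 were found in it, and the rule uses no measured value. The choice was made with earlier results of these data known. Kidney cells of C57BL/6 mice with nephrotoxic serum nephritis (NTN), a model of acute glomerular injury driven by antibodies, were profiled by droplet-based single-cell RNA sequencing in 1 WT library and 1 Vsir-/- library. Both groups were 8 weeks old and received 200 µg of sheep IgG in complete adjuvant and, 4 days later, sheep nephrotoxic serum, for which the labels give 2 µL per g of body weight and the study's methods a different volume. The Vsir-/- mice lack VISTA, an inhibitory protein of the B7 family, in every cell and were bred from cryopreserved sperm. The sources used here do not give how many mice stand behind each library. The labels describe the WT library as sorted CD45+ cells and the Vsir-/- library as kidney cells of all kinds, whereas the study's methods describe a CD45+ sort, so genotype, sort, and library cannot be told apart.

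A T cell that meets its antigen receives costimulatory signals alongside the signal of the antigen receptor. CD28 binds CD80 and CD86 on dendritic cells, macrophages, and B cells, and sustains the survival and cytokine production of a newly activated T cell. ICOS is a relative of CD28 that appears after activation, binds ICOSL, and is known for its part in T cell help to B cells, in regulatory T cells, and in group 2 innate lymphoid cells (ILC2). CD40L (Cd40lg), made chiefly by activated CD4+ T cells, engages CD40 on B cells, macrophages, and dendritic cells, and CD27 is a receptor of naive and central memory T cells that is lost with terminal differentiation and binds CD70.

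Cd28 and Icos lie on the same chromosome and share a stretch of 3 proline codons in a row in the loop through which they bind their ligands. The stretch is shown for both genes because they share it, whereas their transcripts were highest in different cells of these libraries. Both runs are in exon 2 and were read from GRCm38 (GENCODE annotation), + strand, at chr1:60763260-60763310 for Cd28 and chr1:60993968-60994018 for Icos. The Cd28 transcript has 4 exons, and coding transcripts of Icos with this run have 4 or 5. The submitters' notes name mm9, and the deposited counts carry no coordinates. Capitals mark the 3 proline codons, which start at codon 120 of Cd28 and codon 116 of Icos, counted from the start codon.
Cd28: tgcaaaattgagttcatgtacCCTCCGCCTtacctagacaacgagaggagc
Icos: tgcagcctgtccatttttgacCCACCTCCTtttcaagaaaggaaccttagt

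The WT library held 5470 cells and 32799550 unique molecular identifiers (UMIs), with a median of 4726.5 per cell, and the Vsir-/- library 1844 cells and 18601189 UMIs, with a median of 6673. Vsir, the deleted gene, had 4278 UMIs (130.4 CPM, UMIs per 1000000) in WT cells and 8 UMIs (0.430 CPM) in Vsir-/- cells. The authors' 16 clusters were used with their names. EM-like is their term for clusters resembling effector memory T cells, and R1, M2-like R2, and other R2 are their macrophage clusters. For each cluster of a library the UMIs of a gene were summed and scaled to the total UMIs of its cells. With 1 library per genotype there was no replicate and no test, so all intervals in the text cover counting error only, at the 95% level. A ratio is called past 2-fold where the gene had at least 20 UMIs in the cluster over both libraries. In pooled cells, fewer expressing cells and less RNA per cell cannot be told apart.

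The 2 libraries differed in what some clusters contained, and this touches several of the values that follow. All 895 WT cells named non-EM-like CD4+ had a UMI of at least 1 of 6 T cell transcripts (Cd3d, Cd3e, Cd3g, Trac, Trbc1, Trbc2), against 116 of 349 Vsir-/- cells. In the proliferating cluster the numbers were 114 of 118 WT and 66 of 189 Vsir-/- cells. Summed expression of 10 tubule transcripts ranged from 0 to 11.2 CPM over the WT clusters and from 533 to 7804 CPM over the Vsir-/- clusters. In WT cells, T cell transcripts were also present in 222 of 456 M2-like R2 and 141 of 524 neutrophils, and 5 cell barcodes occurred in both libraries. For most receptors in the CD4+ and EM-like CD8+ clusters, values from narrower choices of cells follow those of the whole clusters. In macrophages such values are given for Cd86 by T cell transcripts and B cell markers, and for Icosl and Cd40 by B cell markers only. In the text, Cd80 and the receptors of non-EM-like CD8+ cells are given without such a choice. The B cell cluster differed in content as well and was not split by B cell markers. Cd79a, a B cell marker, was there at 2942 CPM in WT and 1077 CPM in Vsir-/- cells. Flt3, a dendritic cell marker, was at 2.01 and 28.6 CPM. No UMI of Ptprc, the gene of CD45, was found in 135 of 969 WT and 38 of 88 Vsir-/- cells. Ratios in B cells are those of the whole cluster unless another choice is named.

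The first question was which cells held the 4 receptors. Cd28 (ENSMUSG00000026012.2, chr1:60716800-60773359, + strand), the main costimulatory receptor of T cells, was highest in CD4+ clusters of the WT library. WT cells had 1228 UMIs (276 CPM) in the non-EM-like CD4+ cluster, 725 UMIs (259 CPM) in the EM-like CD4+ cluster, 662 UMIs (131 CPM) in the non-EM-like CD8+ cluster, and 40 UMIs (48.6 CPM) in the EM-like CD8+ cluster. The 2 CD4+ clusters did not differ beyond counting error, and both lay above the CD8+ clusters. Vsir-/- cells had 601 UMIs (381 CPM) in the EM-like CD4+ cluster, 43 UMIs (259 CPM) in the EM-like CD8+ cluster, 86 UMIs (195 CPM) in the non-EM-like CD8+ cluster, and 116 UMIs (25.2 CPM) in the non-EM-like CD4+ cluster. Here the EM-like CD4+ cluster was the highest, and the 2 CD8+ clusters did not differ beyond counting error. These 4 CD4+ and CD8+ clusters are called the T cell clusters here. Outside them, Cd28 was at 121 CPM in WT and 43.0 CPM in Vsir-/- proliferating cells, and at 57.0 and 11.3 CPM in γδ T cells. It was at 44.7 and 53.3 CPM in NK cells, and at 21.4 and 1.29 CPM in neutrophils, which should lack it. The T cell clusters held 80.1% of all Cd28 UMIs in the WT library and 77.8% in the Vsir-/- library, and the proliferating cluster a further 7.33% and 17.6%.

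Icos (ENSMUSG00000026009.14, chr1:60977927-61000320, + strand) had a different order, with the ILC2 and γδ T cell clusters at the top. In WT cells it was at 278 CPM (112 UMIs) in ILC2 and 260.1 CPM (73 UMIs) in γδ T cells, against 127 CPM (357 UMIs) in EM-like CD4+ and 75.9 CPM (338 UMIs) in non-EM-like CD4+ cells. In Vsir-/- cells it was at 372 CPM (66 UMIs) in γδ T cells, 268 CPM (39 UMIs) in ILC2, and 204 CPM (321 UMIs) in EM-like CD4+ cells. ILC2 and γδ T cells did not differ beyond counting error in either library, and in Vsir-/- cells neither did ILC2 and EM-like CD4+ cells. The WT level of the γδ T cell cluster came from 16 cells without a UMI of Trdc, the constant gene of the δ chain, at 457 CPM, and 30 cells with one, at 112 CPM, below the 127 CPM of EM-like CD4+ cells. T cell transcripts were present in 60 of 79 WT and 17 of 19 Vsir-/- ILC2. EM-like CD8+ cells had only 9 WT and 12 Vsir-/- UMIs of Icos. The T cell clusters, which leave out γδ T and proliferating cells, held 64.4% and 70.9% of the UMIs of Icos in WT and Vsir-/- cells, respectively. The γδ T cell cluster held a further 4.97% and 10.9%, and the proliferating cluster 9.94% and 9.11%.

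Cd40lg (ENSMUSG00000031132.1, chrX:57212143-57224042, + strand) was highest in CD4+ and γδ T cells of the WT library. WT cells had 341 UMIs (76.5 CPM) in non-EM-like CD4+, 221 UMIs (78.9 CPM) in EM-like CD4+, and 31 UMIs (110.5 CPM) in γδ T cells, and neighbours among these 3 did not differ beyond counting error. The next cluster in the order, proliferating cells at 27.9 CPM, lay below non-EM-like CD4+ cells beyond it. WT non-EM-like and EM-like CD8+ cells had 12 and 6 UMIs (2.37 and 7.29 CPM). In Vsir-/- cells the EM-like CD4+ cluster had 259 UMIs (164 CPM), the non-EM-like CD4+ cluster 50 UMIs (10.9 CPM), and γδ T cells 0 UMIs, which allows up to 16.9 CPM. The WT level in γδ T cells was thus at least 6.53-fold higher than the floor of 3 counts in the Vsir-/- cells. Of the 31 WT UMIs, 29 were in 16 cells without a UMI of Trdc, and only 2 were in the 30 cells with one. The Vsir-/- cluster had only 2 cells without a UMI of Trdc and 26 with one, so the fold compares clusters of different content.

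Cd27 (ENSMUSG00000030336.14, chr6:125232622-125237010, - strand) was at like levels in 3 of the 4 WT CD4+ and CD8+ clusters. It was at 158 CPM (443 UMIs) in EM-like CD4+, 154 CPM (688 UMIs) in non-EM-like CD4+, and 149.6 CPM (757 UMIs) in non-EM-like CD8+ cells, with no difference beyond counting error between neighbours, and lower at 68.1 CPM (137 UMIs) in proliferating, 39.2 CPM (11 UMIs) in γδ T, and 26.7 CPM (22 UMIs) in EM-like CD8+ cells. In Vsir-/- cells it was at 99.5 CPM (44 UMIs) in non-EM-like CD8+, 87.5 CPM (138 UMIs) in EM-like CD4+, 54.2 CPM (9 UMIs) in EM-like CD8+, and 11.3 CPM (52 UMIs) in non-EM-like CD4+ cells. Cd70, its ligand, was at or under 5.72 CPM in every cluster of both libraries.

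**Figure D1:**
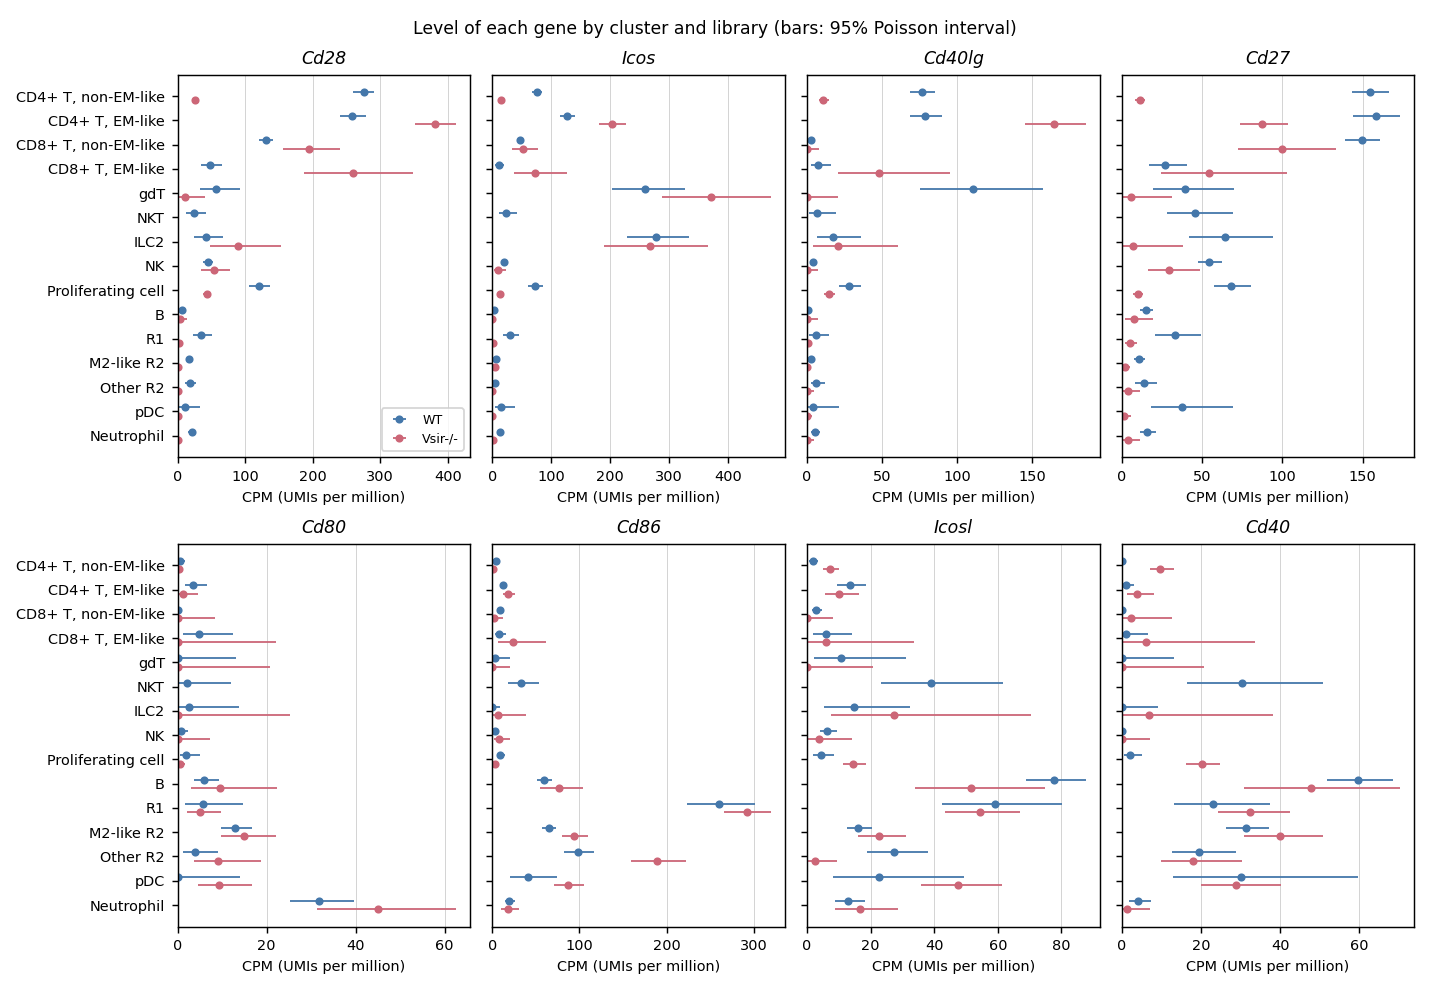
Level of each of the 8 genes (CPM, horizontal axis) by cluster for WT and Vsir-/- cells, with 95% exact Poisson intervals that cover counting error only. Cd28 and Cd27 sit highest in T cell clusters, Icos in ILC2 and γδ T cells of the WT library, Cd80 in neutrophils, and Cd86 in R1 macrophages.

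EM-like CD4+ cells carried more Cd40lg, Icos, and Cd28 and less Cd27 in the Vsir-/- library. For Cd40lg the level went from 78.9 CPM (68.8 to 90.0) in WT to 164 CPM (145 to 185) in Vsir-/- cells, a log2 ratio of 1.06 (0.79 to 1.32). For Icos the log2 ratio was 0.68 (0.45 to 0.90) and for Cd28 0.56 (0.40 to 0.72). These 3 intervals lie above 0. Cd27 had a log2 ratio of −0.85 (−1.14 to −0.57), with 158 CPM (144 to 173) in WT and 87.5 CPM (73.5 to 103) in Vsir-/- cells. Cd40lg was thus the 1 receptor of 4 past 2-fold higher and none was past 2-fold lower in this cluster, where 10.4% of all genes tested were past 2-fold higher and 5.68% lower.

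Shares of cells with a UMI gave the same order for these genes. Among EM-like CD4+ cells, Cd40lg was detected in 20.9% of the 489 from WT and 39.3% of the 244 from Vsir-/- mice, and after each cell was thinned to 1000 UMIs in 5.01% and 16.2%. Neutrophils, which should lack it, had 1.53% of 524 WT cells and 0 of 158 Vsir-/- cells, which allows up to 1.90%. Cd28 was detected in 54.8% and 74.6% of EM-like CD4+ cells (thinned, 18.0% and 28.6%), against 4.77% and 0.633% of neutrophils. The share with Cd27 was 49.5% in WT and 34.4% in Vsir-/- EM-like CD4+ cells (thinned, 15.03% and 7.47%), against 4.96% and 1.90% of neutrophils. For Icos the shares were 35.2% and 49.6%, but the thinned shares of 11.7% (8.95 to 14.9) and 14.1% (9.97 to 19.2) overlapped. Icos was detected in 2.86% and 0.633% of neutrophils. The median depth was 4903 UMIs per cell in WT and 5852.5 in Vsir-/- EM-like CD4+ cells, and 3565 and 4097 in neutrophils.

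The EM-like CD4+ cluster held cells of more than 1 kind, in different numbers in the 2 libraries. The 5 NK cell markers used were Ncr1, Klrb1c, Klre1, Eomes, and Klrk1. Their summed expression in this cluster was 1238 CPM (WT) and 407 CPM (Vsir-/-). UMIs of Cd8a or Cd8b1 but none of Cd4 were found in 93 WT and 40 Vsir-/- cells. Among the 194 WT and 156 Vsir-/- cells with no NK marker UMI, the log2 ratio of Cd40lg was 0.47 (0.17 to 0.77), with 159 and 221 CPM, that of Cd28 was 0.29 with 353 and 432 CPM, that of Icos was 0.19 (−0.07 to 0.45) with 237 and 271 CPM, and that of Cd27 was −0.74 with 126 and 75.9 CPM. In these cells Cd40lg was no longer past 2-fold. Among the 92 WT and 76 Vsir-/- cells with UMIs of Cd4 but none of Cd8a or Cd8b1, Cd40lg was at 206 and 259 CPM (log2 ratio 0.33, −0.03 to 0.69), Icos at 223 and 328 CPM (0.56, 0.22 to 0.90), Cd28 at 362 and 395 CPM (0.13, −0.16 to 0.41), and Cd27 at 93.9 and 61.4 CPM (−0.61, −1.29 to 0.04). The ratios were smaller in both subsets, and the intervals held 0 for Icos in the first and for Cd40lg, Cd28, and Cd27 in the second. The part of these cells in the whole-cluster ratios was not tested beyond these values.

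EM-like CD4+ cells in which Foxp3, the defining factor of regulatory T cells, was detected carried more Icos and Cd27 than the others. The 24 WT and 15 Vsir-/- cells with Foxp3 had 310.0 and 383 CPM of Icos, against 117 and 192 CPM in the remaining cells. Their Cd27 was at 257 and 263 CPM, against 152 and 76.7 CPM in the remaining cells. The remaining cells were of mixed kinds, and 295 of 489 WT and 88 of 244 Vsir-/- cells of the whole cluster had an NK marker UMI. In the cells with Cd4 but no Cd8 UMI given above, Icos lay above and Cd27 below the remaining cells in both libraries. The contrast with the remaining cells is thus not one with other CD4+ T cells alone. The log2 ratio of Cd27 was 0.03 (−0.77 to 0.80) in cells with Foxp3 and −0.99 (−1.30 to −0.69) in cells without, and the difference between these ratios was not tested. Cd40lg had 2 and 9 UMIs in the cells with Foxp3.

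In EM-like CD8+ cells the counts were small and the ratios large. Cd28 had 40 UMIs in 197 WT cells and 43 UMIs in 28 Vsir-/- cells (48.6 and 259 CPM), a log2 ratio of 2.41 (1.76 to 3.07). Icos had 9 and 12 UMIs (10.9 and 72.3 CPM), a log2 ratio of 2.72 (1.35 to 4.15), and Cd27 had 22 and 9 UMIs, a log2 ratio of 1.02 (−0.28 to 2.20). All 3 receptors with enough UMIs were past 2-fold higher, against 5.22% of all genes tested in this cluster, and 0 were past 2-fold lower, against 13.6%. Icos had enough UMIs only through the Vsir-/- cells, where it was higher, so its place in this count was not independent of its direction. Cd40lg had 6 and 8 UMIs and was under the filter. NK markers summed to 2489 CPM in WT and 434 CPM in Vsir-/- cells of the cluster, and 190 WT but only 15 Vsir-/- cells had an NK marker UMI. All 197 WT and 28 Vsir-/- cells had a T cell transcript, so an NK marker UMI does not by itself name the cell. Trdc was at 390 CPM in WT and 223 CPM in Vsir-/- cells, and Cd4 at 7.29 and 90.3 CPM. UMIs of Cd4 but none of Cd8a or Cd8b1 were found in 3 WT and 6 Vsir-/- cells. The whole-cluster ratios thus compare cells of different content. Cd28 was at 44.7 and 208 CPM in the cells with an NK marker (log2 ratio 2.22, 1.27 to 3.11) and at 224 and 302 CPM in the 7 WT and 13 Vsir-/- cells without (0.43, −1.09 to 2.41). Among cells with a Cd8 and no Cd4 UMI, 102 in WT and 15 in Vsir-/-, Cd28 was at 36.5 and 235 CPM (2.68, 1.68 to 3.71). Without the cell with the most UMIs of the gene in each library, the log2 ratio was 2.38 for Cd28, 2.37 for Icos on fewer than 20 UMIs, and 0.74 for Cd27, so that Cd28 alone stayed past 2-fold with enough UMIs.

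In non-EM-like CD8+ cells the 3 receptors with enough UMIs differed by less than 2-fold. The log2 ratio was 0.57 (0.23 to 0.90) for Cd28, 0.12 (−0.56 to 0.74) for Icos, and −0.59 (−1.06 to −0.15) for Cd27. After thinning to 1000 UMIs, Cd27 was at −1.17 (−3.48 to 0.42). Cd40lg had 12 WT and 0 Vsir-/- UMIs and was under the filter. None of the 3 was past 2-fold in either direction, against 9.89% of genes past 2-fold higher and 12.9% lower in this cluster. The direction of Cd28 and Cd27 was that of the EM-like CD4+ cluster, with Cd28 higher and Cd27 lower in Vsir-/- cells.

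In non-EM-like CD4+ cells all 4 receptors were lower in the Vsir-/- library. Log2 ratios were −3.45 for Cd28, −2.28 for Icos, −2.81 for Cd40lg, and −3.77 for Cd27. All 4 were past 2-fold lower, against 10.7% of all genes tested, 0 were past 2-fold higher, against 48.0%, and the median of all genes was 0.92, so that the receptors lay further below that median than below 0. The 233 Vsir-/- cells in it without a T cell transcript held 0 UMIs of Cd28, 3 of Icos, 0 of Cd40lg, and 16 of Cd27. When only cells having a T cell transcript were kept, 895 in WT and 116 in Vsir-/-, the log2 ratios were −1.53, −0.42, −0.90, and −2.39 in the same order of genes. Cd28 and Cd27 then stayed past 2-fold lower, against 9.86% of all genes tested in these cells, 0 were past 2-fold higher, against 35.1%, and the median of all genes was 0.49.

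A stricter choice of cells moved the values further. In the 892 WT and 91 Vsir-/- cells with at least 3 UMIs of the T cell transcripts, Cd28 had a log2 ratio of −0.80 with 275 and 158 CPM, Cd27 −1.77 with 154 and 45.4 CPM, Cd40lg −0.15 with 76.1 and 68.8 CPM, and Icos 0.32 (−0.07 to 0.70) with 75.9 and 94.9 CPM. In the 413 WT and 37 Vsir-/- cells positive for Cd4 alone, the log2 ratio was −0.56 for Cd28, 0.53 for Icos, 0.02 for Cd40lg, and −1.48 for Cd27. Cd27 was lower in the Vsir-/- library in every choice of cells, Cd28 was lower by a smaller amount, and Icos turned its direction.

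**Figure D2:**
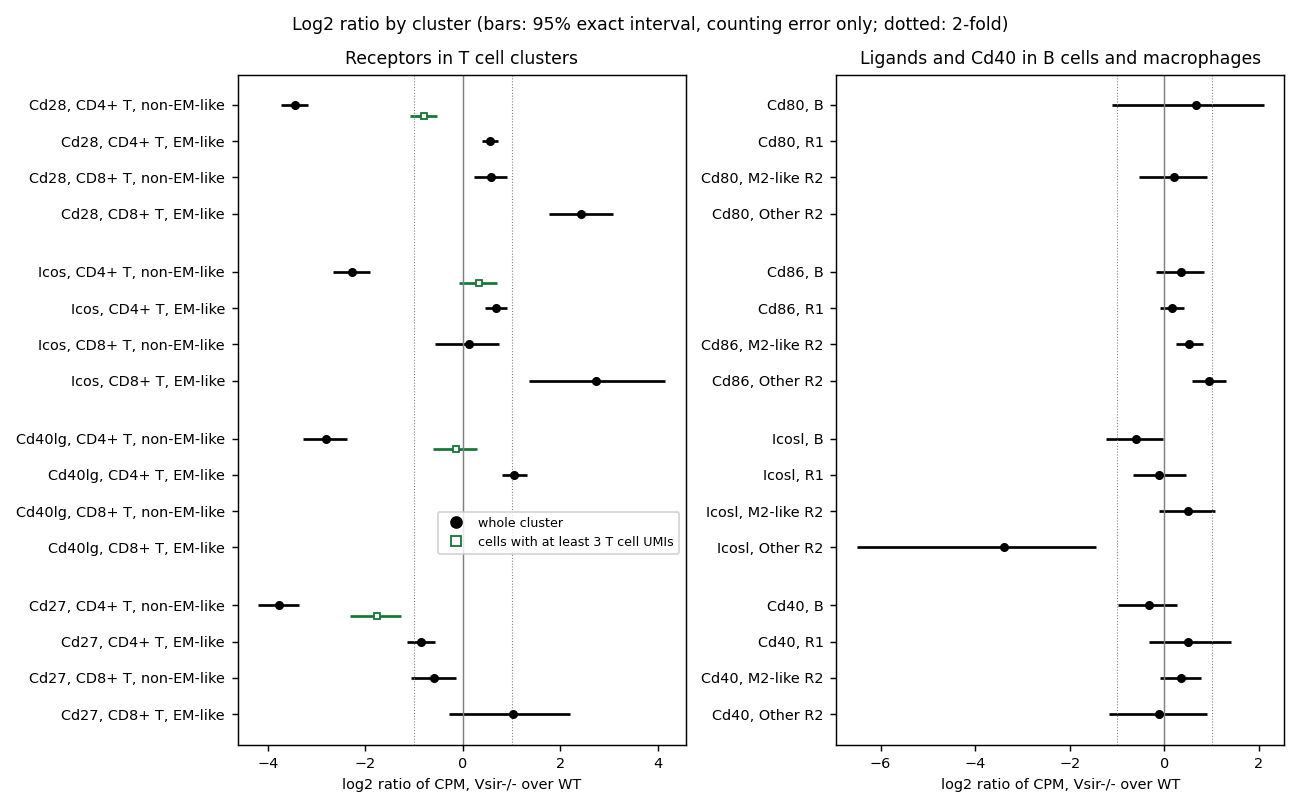
Log2 ratio of CPM, Vsir-/- over WT (horizontal axis), of the 4 receptors in T cell clusters and of Cd80, Cd86, Icosl, and Cd40 in B cells and macrophages, with 95% exact intervals that cover counting error only and dotted lines at 2-fold. Filled circles are whole clusters, open squares are non-EM-like CD4+ cells with at least 3 T cell UMIs, and genes with fewer than 20 UMIs have no point. The receptor ratios of non-EM-like CD4+ cells, between −3.77 and −2.28 for the whole cluster, lie between −1.77 and 0.32 for the squares.

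**Figure D3:**
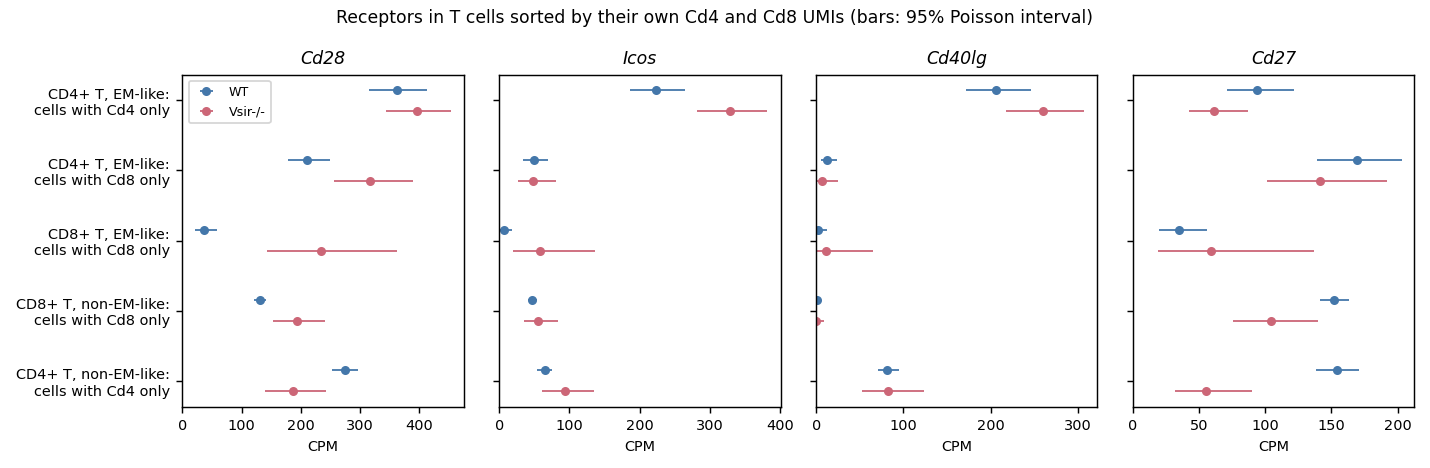
Level of the 4 receptors (CPM, horizontal axis) in T cells sorted by their own Cd4 and Cd8 UMIs, for WT and Vsir-/- cells, with 95% exact Poisson intervals that cover counting error only. Among EM-like CD4+ cells with Cd4 alone, Icos was at 223 CPM in WT and 328 CPM in Vsir-/- cells, whereas cells with Cd8 alone had 49.8 and 48.3 CPM.

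Over the 4 T cell clusters, 14 of 16 receptor and cluster pairs had enough UMIs, of which 4 were past 2-fold higher and 4 past 2-fold lower. Among all genes tested, 10.4% were past 2-fold higher and 5.68% lower in EM-like CD4+ cells, and 5.22% and 13.6% in EM-like CD8+ cells. The shares were 48.0% and 10.7% in non-EM-like CD4+ and 9.89% and 12.9% in non-EM-like CD8+ cells. All 4 lower pairs were in non-EM-like CD4+ cells, and the higher ones were Cd40lg in EM-like CD4+ cells and the 3 of EM-like CD8+ cells. Of these 3, Icos had enough UMIs only through the Vsir-/- cells. In γδ T cells Icos had a log2 ratio of 0.52 (0.01 to 1.02), and in cells with a Trdc UMI, 30 in WT and 26 in Vsir-/-, it was 1.56 (0.77 to 2.42) with 112 and 332 CPM. In the proliferating cluster as a whole all 4 receptors were lower in Vsir-/- cells, with log2 ratios of −1.49 for Cd28, −2.55 for Icos, −0.93 (−1.47 to −0.39) for Cd40lg, and −2.78 for Cd27. In its cells with a T cell transcript, Cd28 was at 123 and 132 CPM (0.11), Icos at 73.8 and 36.1 CPM (−1.03), Cd40lg at 28.3 and 45.1 CPM (0.67, 0.13 to 1.21), and Cd27 at 69.3 and 22.2 CPM (−1.64). Cd27 and Icos were thus lower in both choices of cells, whereas Cd40lg turned its direction. Shares of all genes past 2-fold were not computed for γδ T cells or the proliferating cluster, so these receptor values have no such background.

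Receptors were also counted in macrophages of the WT library, where they should be absent. WT R1 macrophages had 24 UMIs of Cd28 (34.5 CPM) and Vsir-/- R1 macrophages 3 (1.87 CPM). All 24 were in the 37 WT R1 cells with a T cell transcript, and 0 were in the 79 cells without. In WT M2-like R2 macrophages, 71 of 74 UMIs of Cd28 were in cells with a T cell transcript.

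The second question was which cells held the ligands and Cd40. Cd80 (ENSMUSG00000075122.5, chr16:38455561-38496335, + strand), a ligand of CD28 and of the inhibitory receptor CTLA-4, was the scarcest of the 4. Neutrophils held 41.4% of its UMIs in the WT library and 36.5% in the Vsir-/- library, with 79 and 35 UMIs (31.8 and 45.0 CPM, log2 ratio 0.50, −0.12 to 1.09). M2-like R2 macrophages had 57 and 25 UMIs (13.0 and 14.9 CPM, 0.20, −0.54 to 0.90) and B cells 21 and 5 (6.03 and 9.53 CPM, 0.66, −1.10 to 2.11). The neutrophils lay above M2-like R2 macrophages in both libraries beyond counting error. R1 macrophages had only 4 and 8 UMIs and other R2 macrophages 5 and 7. Cd80 was in 10.9% of WT and 19.6% of Vsir-/- neutrophils (thinned, 2.98% and 6.54%). It was found in 0 of 659 WT and 0 of 50 Vsir-/- non-EM-like CD8+ cells, which allows up to 0.455% and 6.00%, at median depths of 7117 and 8325.5 UMIs.

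Cd86 (ENSMUSG00000022901.13, chr16:36603869-36666081, - strand), the ligand of CD28 that resting antigen-presenting cells already carry, was highest in the 3 macrophage clusters, in the same order in both libraries. R1 macrophages had 181 WT and 468 Vsir-/- UMIs (260.5 and 292 CPM), other R2 macrophages 126 and 146 (98.4 and 189 CPM), M2-like R2 macrophages 285 and 157 (64.9 and 93.7 CPM), and B cells 208 and 40 (59.7 and 76.2 CPM). Each macrophage cluster lay above the next beyond counting error, and M2-like R2 macrophages and the cluster next below them, B cells in WT and plasmacytoid dendritic cells (pDC) in Vsir-/- cells, did not differ beyond it. The macrophage clusters held 58.4% of all WT and 78.4% of all Vsir-/- UMIs of Cd86, and R1 alone held 17.9% and 47.6% of all. R1 macrophages made up 116 of 5470 WT and 237 of 1844 Vsir-/- cells.

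Within the clusters Cd86 was higher in Vsir-/- cells in other R2 macrophages, with a log2 ratio of 0.94 (0.59 to 1.30), and in M2-like R2 macrophages, with 0.53 (0.24 to 0.82). In R1 macrophages it was 0.17 (−0.08 to 0.42) and in B cells 0.35 (−0.17 to 0.85). The first 2 intervals lie above 0 and no value reached 2-fold, although M2-like R2 macrophages were at 1.29 after thinning. Cd86 was in 37.2% of WT and 51.1% of Vsir-/- other R2 macrophages (thinned, 11.1% and 18.9%), and in 37.1% and 48.2% of M2-like R2 macrophages (thinned, 4.40% and 11.3%). Non-EM-like CD8+ cells, which should lack it, had 5.77% and 2.00% (thinned, 0.759% and 0). Without cells with a B cell marker UMI, the log2 ratio was 0.70 (0.29 to 1.13) in other R2, 0.60 (0.26 to 0.93) in M2-like R2, and −0.31 (−0.65 to 0.04) in R1 macrophages. Without cells with a T cell transcript it was 0.74 (0.33 to 1.16), 0.39, and −0.02 in the same order. The R1 cells without a B cell marker UMI differed in content between the libraries, as given below for Icosl.

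**Figure D4:**
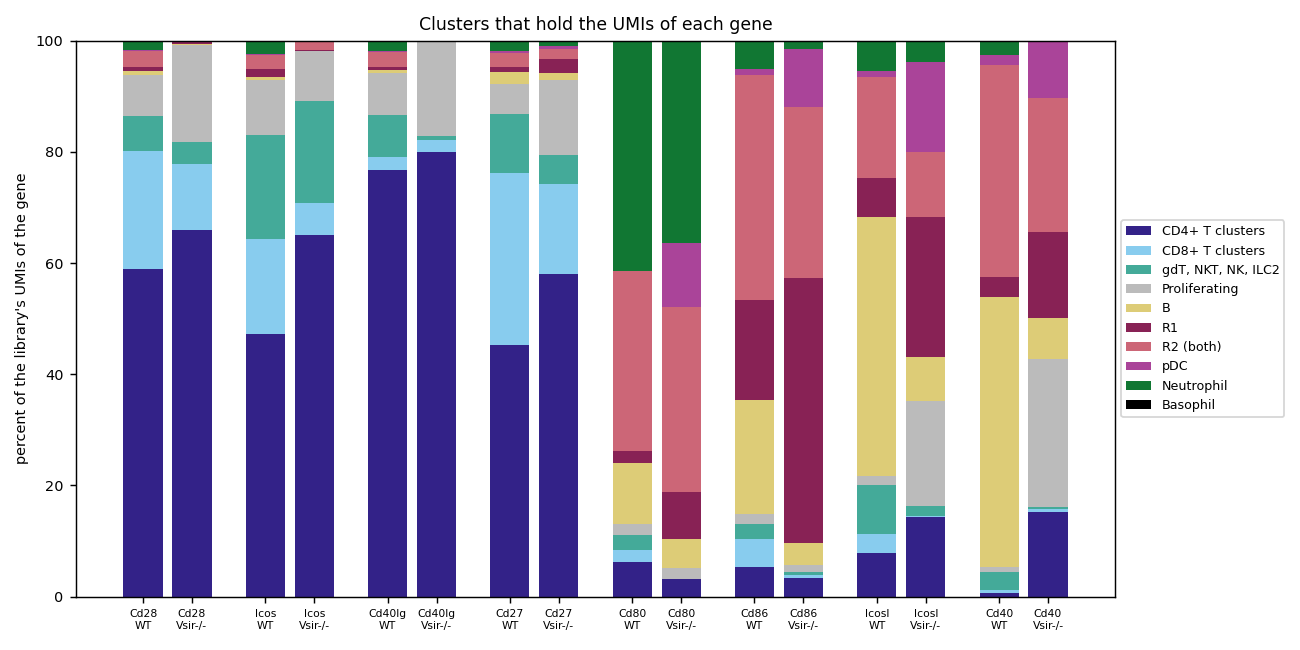
Share of each library's UMIs of each gene (percent, vertical axis) held by groups of clusters, as stacked bars, 1 per library. The CD4+ and CD8+ T cell clusters together held 64.4% to 82.1% of the UMIs of the 4 receptors, macrophages 58.4% and 78.4% of Cd86, and B cells 46.6% of Icosl and 48.5% of Cd40 in the WT library.

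Icosl (ENSMUSG00000000732.9, chr10:78069302-78083913, + strand), the ligand of ICOS, was at its highest level in B cells and R1 macrophages. In WT cells it was at 77.8 CPM (271 UMIs) in B cells and 59.0 CPM (41 UMIs) in R1 macrophages, and in Vsir-/- cells at 51.5 CPM (27 UMIs) and 54.3 CPM (87 UMIs). The 2 clusters did not differ beyond counting error in either library, and in Vsir-/- cells neither did B cells and the next cluster, pDC, at 47.3 CPM. B cells held 46.6% of the WT but 7.85% of the Vsir-/- UMIs, and R1 macrophages 7.04% and 25.3%. In the Vsir-/- library the proliferating cluster held a further 18.9% and pDC 16.3%. The clusters also differed in their share of cells. B cells made up 17.7% of WT and 4.77% of Vsir-/- cells, and R1 macrophages 2.12% and 12.9%. The proliferating cluster made up 2.16% and 10.2%, and pDC 0.384% and 4.66%. The log2 ratio was −0.60 (−1.22 to −0.02) in B cells, where it turned to 0.15 (−1.21 to 1.26) after thinning, −0.12 in R1, 0.49 (−0.12 to 1.08) in M2-like R2, and −3.40 (−6.50 to −1.44) in other R2 macrophages, where 35 WT UMIs (27.3 CPM) stood against 2 Vsir-/- UMIs (2.59 CPM). Icosl was in 23.0% of WT and 14.8% of Vsir-/- B cells (thinned, 8.03% and 6.94%), and in 1.97% of WT and 0 of 50 Vsir-/- non-EM-like CD8+ cells.

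The Icosl difference in other R2 macrophages sat in cells with B cell markers. Summed expression of Cd79a, Cd79b, and Ms4a1 in this cluster was 1125 CPM (WT) and 7.76 CPM (Vsir-/-, with Ms4a1 at 0), and 60 of 188 WT against 5 of 131 Vsir-/- cells had a UMI of at least 1 of these 3. Of the 35 WT UMIs of Icosl, 33 were in the 60 WT cells with a B cell marker (49.0 CPM). The 128 WT and 126 Vsir-/- cells without one had 2 UMIs each (3.29 and 2.69 CPM). In M2-like R2 macrophages 173 of 456 WT and 15 of 168 Vsir-/- cells had a B cell marker. In the cells without, Icosl was at 11.5 and 23.2 CPM (log2 ratio 1.02, 0.27 to 1.77), past 2-fold higher, which it was not in the whole cluster. Shares of all genes past 2-fold were not computed for cells without a B cell marker. In R1 macrophages without a B cell marker Icosl was at 65.3 and 53.5 CPM. A B cell marker UMI was found in 53 of 116 WT and 66 of 237 Vsir-/- R1 cells. Cd79a had 344 WT and 1 Vsir-/- UMIs in this cluster. Among R1 cells without a B cell marker, 4 of 63 WT and 51 of 171 Vsir-/- cells had no UMI of Ptprc. The R1 cells kept by this split thus differed in content between the libraries. The NKT cluster, which held 94 WT cells and no Vsir-/- cell, had 18 UMIs of Icosl (39.0 CPM) beside 2367 CPM of the B cell markers.

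**Figure D5:**
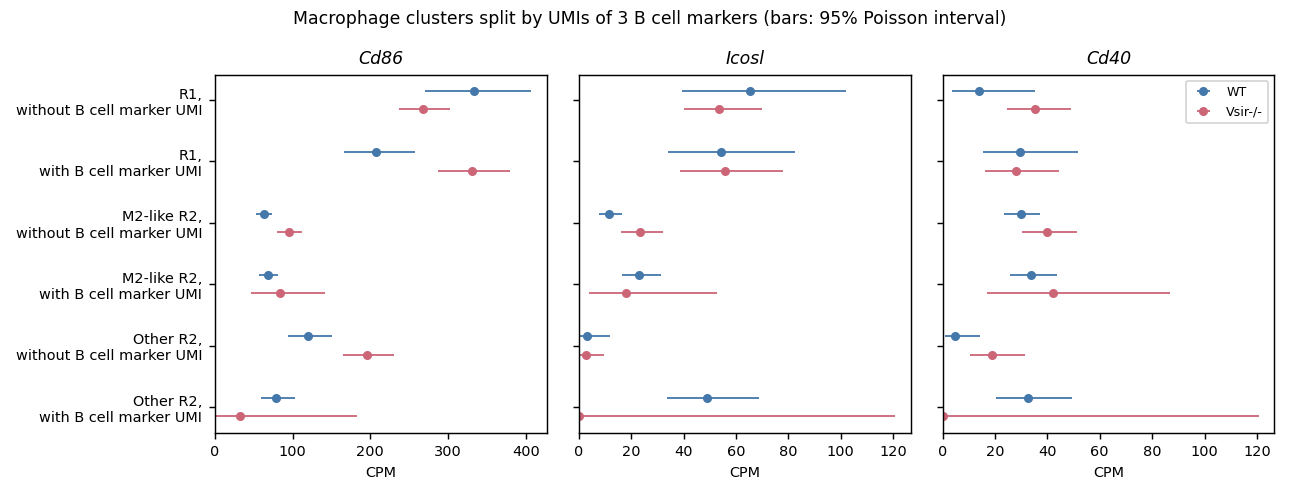
Levels of Cd86, Icosl, and Cd40 (CPM, horizontal axis) in macrophage clusters for WT and Vsir-/- cells with and without a UMI of a B cell marker, with 95% exact Poisson intervals that cover counting error only. In other R2 macrophages Icosl was at 49.0 CPM in WT cells with a B cell marker and at 3.29 CPM in WT cells without, beside 2.69 CPM in Vsir-/- cells without.

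Cd40 (ENSMUSG00000017652.16, chr2:165055627-165072948, + strand), the receptor for CD40L on antigen-presenting cells, was highest in B cells. It had 208 WT and 25 Vsir-/- UMIs in B cells (59.7 and 47.7 CPM, log2 ratio −0.33), 138 and 67 in M2-like R2 macrophages (31.4 and 40.0 CPM, 0.35), 16 and 52 in R1 macrophages (23.0 and 32.5 CPM, 0.50), and 25 and 14 in other R2 macrophages (19.5 and 18.1 CPM, −0.11). The intervals of all 4 log2 ratios held 0. B cells lay above M2-like R2 macrophages beyond counting error in the WT library and not in the Vsir-/- library. Cd40 was in 18.4% of WT and 18.2% of Vsir-/- B cells (thinned, 5.28% and 5.56%), and in 0.152% and 2.00% of non-EM-like CD8+ cells (thinned, 0 in both). Without cells having a B cell marker UMI, other R2 macrophages had 3 WT and 14 Vsir-/- UMIs (log2 ratio 1.93, 0.09 to 4.37, on fewer than 20 UMIs), and R1 macrophages 4 and 35 (13.8 and 35.3 CPM, 1.36, −0.12 to 3.31). In R1 macrophages so chosen, Cd40 had enough UMIs only through the Vsir-/- cells, where it was higher, and its interval holds 0. Shares of all genes past 2-fold were not computed for these cells. The direction of Cd40 in other R2 macrophages turned. The R1 cells so chosen differed in content between the libraries, as given above for Icosl.

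Over B cells and the 3 macrophage clusters, 14 of 16 ligand and cluster pairs had enough UMIs, of which 0 were past 2-fold higher and 1, Icosl in other R2 macrophages, was past 2-fold lower. Among all genes tested, 15.8% were past 2-fold higher and 18.2% lower in B cells. The shares were 14.3% higher and 8.67% lower in R1, 8.07% higher and 8.17% lower in M2-like R2, and 6.71% higher and 10.1% lower in other R2 macrophages. In the cluster named as pDC, whose marker Siglech was at 200.2 and 205 CPM, Cd86 had 11 WT and 103 Vsir-/- UMIs (41.6 and 87.1 CPM, log2 ratio 1.07, 0.17 to 2.11) and Icosl 6 and 56 (22.7 and 47.3 CPM, 1.06, −0.15 to 2.57). The B cell markers summed to 559 CPM in WT and 16.1 CPM in Vsir-/- cells of this cluster, and 9 of 21 WT and 5 of 86 Vsir-/- cells had a T cell transcript. In the 9 WT and 72 Vsir-/- cells without a B cell marker UMI, the log2 ratio of Cd86 was 0.63 (−0.47 to 1.98), and in the cells without a T cell transcript 0.40 (−0.64 to 1.65), so that neither stayed past 2-fold. Icosl then had only 1 and 3 WT UMIs. In the whole cluster Cd40 had 8 and 34 UMIs, of which 20 were in 1 Vsir-/- cell, and Cd80 had 0 and 11.

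Receptors and ligands that share a pathway were set side by side in single cells after thinning to 1000 UMIs. Among T cell clusters, 33 WT and 17 Vsir-/- cells had both Cd28 and Icos. Cd28 was found in 22.8% of WT cells with Icos and 17.3% of those without, and in 34.0% and 15.1% of Vsir-/- cells. Icos was found in 14.4% of WT cells with Cd40lg and 6.16% of those without, and in 15.4% and 6.93% of Vsir-/- cells. These cells come from all T cell clusters. Before thinning, 233 of the 671 Vsir-/- cells were non-EM-like CD4+ cells without a T cell transcript, which held hardly any Cd28 or Icos UMIs. Such cells fall mostly among those without the gene in the Vsir-/- shares. Within the EM-like CD4+ cluster the shares lay closer together. There Cd28 was found in 21.4% of WT cells with Icos and 17.5% of those without, and in 29.4% and 28.5% of Vsir-/- cells. Icos was found in 16.7% of WT cells with Cd40lg and 11.4% of those without, and in 15.4% and 13.9% of Vsir-/- cells. In macrophages only 5 WT and 6 Vsir-/- cells had Cd80 after thinning, of which 0 and 2 also had Cd86. Without thinning, 38 of 57 WT and 25 of 36 Vsir-/- macrophages with Cd80 also had Cd86. Cd86 was then found in 66.7% of WT macrophages with Cd80 and 39.7% of those without, and in 69.4% and 54.0% of Vsir-/- macrophages. Depth per cell was equal by construction in the thinned shares only, and the cells of a cluster in a library come from 1 library.

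For each of the 8 genes, the 3 genes with the most similar level over 24 sums of a cluster in a library were found by Pearson's r on log2(CPM + 10). The sums come from 14 clusters, share 2 libraries, and differ in depth, so the values are descriptions. Cd28 was most like Thy1 (0.927), Cd3d (0.924), and Trac (0.923), and Cd27 was close to Il27ra (0.925) and Cd28 (0.920). Icos was most like Tasp1 (0.933), Pglyrp2 (0.904), and Inpp4b (0.902), and Cd40lg most like Izumo1r (0.838), Slamf1 (0.830), and Tesc (0.817). Cd28 was thus itself among the 3 genes most like Cd27. Cd80 was most like Cd300lf (0.907), Il1rn (0.900), and Pira2 (0.900), and Cd86 most like Ctss (0.946), Pld4 (0.936), and Fgd2 (0.935). Icosl was most like Bmp2k (0.902), Ciita (0.882), and Swap70 (0.877), and Cd40 most like Pold4 (0.916), Plekho1 (0.904), and Cd74 (0.903).

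The other genes of the pathway were followed in 2 lists. The first held 21 other receptors and ligands, inhibitory receptors such as Ctla4 among them, so its counts are not of costimulatory genes alone. Of the 21, 20 were in the count table, and 16 had enough UMIs in EM-like CD4+ cells. Of the 16, 4 were past 2-fold higher and 1 lower, against 10.4% and 5.68% of all genes tested. The median log2 ratio was 0.20 against −0.01 for all genes. Among the 12 with at least 100 UMIs, Slamf1, a homophilic receptor of lymphocytes, was the highest. It had 131 WT and 195 Vsir-/- UMIs (46.7 and 124 CPM, log2 ratio 1.40, 1.08 to 1.73). Crtam, a receptor of cytotoxic lymphocytes, was the lowest of the 12, with 109 and 29 UMIs (38.9 and 18.4 CPM, −1.08). Both values are of the whole cluster, where 295 WT and 88 Vsir-/- cells had an NK marker UMI, and no narrower choice of cells was made for them. In EM-like CD8+ cells 3 of 9 were past 2-fold higher and 0 lower (all genes, 5.22% and 13.6%), and in non-EM-like CD8+ cells 1 of 12 higher and 2 lower (9.89% and 12.9%). In non-EM-like CD4+ cells 2 of 14 were higher and 11 lower (48.0% and 10.7%), and among those with a T cell transcript 1 of 12 higher and 5 lower (35.1% and 9.86%). In M2-like R2 macrophages 2 of 10 were higher and 6 lower (8.07% and 8.17%). Among the 4 with at least 100 UMIs there, Tnfsf9, the ligand of 4-1BB, was the highest, at 14.3 and 27.5 CPM (0.94). Cd2, a T and NK cell adhesion molecule, was the lowest, at 40.5 and 3.58 CPM (−3.50). In this cluster 222 of 456 WT and 14 of 168 Vsir-/- cells had a T cell transcript. In B cells 2 of 7 were higher and 4 lower (15.8% and 18.2%), in R1 macrophages 0 of 4 higher and 2 lower (14.3% and 8.67%), and in other R2 macrophages 1 of 4 higher and 2 lower (6.71% and 10.1%).

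The second list held 20 genes that carry costimulatory signals inside the cell. In EM-like CD4+ cells all 20 had enough UMIs, 1 was past 2-fold higher and 0 lower, and the shares of all genes are those given with the first list, here and in the other clusters. That gene was Traf1, an adaptor of TNF receptors that activation induces, with 331 WT and 383 Vsir-/- UMIs (118 and 243 CPM, log2 ratio 1.04, 0.82 to 1.26). Pik3r1, a regulatory subunit of PI3 kinase, had the lowest value among the 17 with at least 100 UMIs, with 197 and 109 CPM (−0.85). Traf1 and Pik3r1 were likewise read in the whole cluster only. In M2-like R2 macrophages 1 of 20 was higher and 2 lower. Among the 15 with at least 100 UMIs there, Malt1, a protease of NF-κB signalling, was the highest, at 90.4 and 258 CPM (1.51, 1.31 to 1.71). Pik3cd, a catalytic subunit of PI3 kinase, was the lowest of the 15, at 148 and 91.9 CPM (−0.69), and was not past 2-fold. In the remaining clusters 1 of 16 was higher and 1 lower in EM-like CD8+ cells, 0 of 20 higher and 2 lower in non-EM-like CD8+ cells, and 1 of 20 higher and 11 lower in non-EM-like CD4+ cells, where 1 was higher and 7 lower among cells with a T cell transcript (all genes, 35.1% and 9.86%). The counts were 0 of 19 higher and 5 lower in B cells, 1 of 18 higher and 4 lower in R1, and 1 of 19 higher and 3 lower in other R2 macrophages.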

How the data were processed

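The authors aligned the reads with Cell Ranger (version 3.1.0), filtered and merged the cells in Seurat (version 3.2.3), and named the clusters. The submitters' processing notes name mm9 as the genome build. The values used are deposited UMI counts for each gene in each cell, whole numbers without normalization. The deposited mitochondrial percent of each cell served only for the alternative limit of 5%. Deposited map coordinates of the cells were not used.

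Members and gene lists were chosen with earlier results of these data known. For each cluster of a library, the UMIs of a gene were summed and expressed as CPM of all UMIs in those cells. Intervals at the 95% level are exact Poisson for levels, Clopper-Pearson for shares, and conditional binomial for ratios. They cover counting error only. A count of 0 was taken to allow 3 counts. Thinning to 1000 UMIs left out shallower cells. No p-value was computed, because each genotype has 1 library, and no doublet caller was run. Whether doublets were removed before deposit is not given in the sources used here. Cells were instead split by UMIs of T cell, B cell, NK cell, and endothelial markers.

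Named genes are the 8 members, the 3 genes most like each among genes with at least 500 UMIs, over sums of at least 50 cells, and, of each pathway list, the genes with the highest and lowest log2 ratio among those with at least 100 UMIs in EM-like CD4+ cells and in M2-like R2 macrophages, the macrophage cluster with the most UMIs. Further genes serve as markers, and Cd70 was added as a ligand. Some genes of the lists and of this rule are not reported here and were left out of the list counts and marker sums. The steps were tested on simulated counts. Sequences and gene positions were read from the GRCm38 genome with its GENCODE annotation. The work used Python 3.11.15, numpy 2.4.6, scipy 1.17.1, pandas 2.3.3, and matplotlib 3.10.9.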

Additional observations from a re-analysis of the deposited data

Results flagged for a closer look

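In whole clusters the 4 receptors lay on opposite sides between T cell clusters under the same comparison of Vsir-/- with WT cells. Cd28 had a log2 ratio of 2.41 in EM-like CD8+ and −3.45 in non-EM-like CD4+ cells, Icos 2.72 and −2.28, and Cd27 1.02 and −3.77 in the same clusters. Cd40lg had a log2 ratio of 1.06 in EM-like CD4+ and −2.81 in non-EM-like CD4+ cells. The differences between clusters were not tested, since each genotype has 1 library. The interval of Cd27 in EM-like CD8+ cells held 0 (−0.28 to 2.20), and the ratio was −0.32 without NK marker cells. Cd28 in this cluster was at 0.43 (−1.09 to 2.41) without NK marker cells and at 2.68 (1.68 to 3.71) with a Cd8 and no Cd4 UMI. Icos in this cluster had 9 WT and 12 Vsir-/- UMIs, enough only through the Vsir-/- cells. In EM-like CD4+ cells Cd40lg was at 0.47 (0.17 to 0.77) without NK marker cells and at 0.33 (−0.03 to 0.69) with a Cd4 and no Cd8 UMI. T cell transcripts were absent from 233 of the 349 Vsir-/- cells named non-EM-like CD4+. With at least 3 T cell UMIs the ratios there were −0.80 for Cd28, −1.77 for Cd27, −0.15 (−0.61 to 0.28) for Cd40lg, and 0.32 for Icos, which was then no longer on the opposite side.

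Cd40 and Icosl were also found in Vsir-/- clusters outside the antigen-presenting cells. Cd40 was at 9.79 CPM (45 UMIs) among non-EM-like CD4+ cells, where WT cells had 0 UMIs, and at 20.2 CPM (90 UMIs) in the proliferating cluster, where WT cells had 4 UMIs. Icosl was at 7.18 CPM in the non-EM-like CD4+ cluster and at 14.6 CPM in the proliferating cluster of the Vsir-/- library. Summed expression of 4 endothelial markers was 1650 and 3153 CPM in these Vsir-/- clusters, against 126 and 32.3 CPM in WT. Of the 57 Cd40 UMIs in Vsir-/- proliferating cells without a T cell transcript, 56 were in the 77 cells with an endothelial marker UMI and 1 was in the other 46 cells. In the non-EM-like CD4+ cluster all 25 such UMIs were in cells with an endothelial marker UMI. The remaining 33 and 20 Cd40 UMIs were in cells with a T cell transcript.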

How the results depend on the processing

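Of the 28 log2 ratios, the value stayed inside the 95% interval of the reported ratio for 24 with cells of at most 5% mitochondrial UMIs, 24 with cells chosen by T cell transcript, 28 without mitochondrial and tubule UMIs, 28 without the 1 cell with the most UMIs of the gene, and 24 less the median of all genes, but only 12 of 26 after thinning. Some of this agreement was fixed in advance. All EM-like CD8+ cells had a T cell transcript, so that choice could not move their ratios. Leaving out mitochondrial and tubule UMIs changes only the totals, so it shifts every ratio of a cluster by the same amount. Wide intervals leave room for a change of sign. No ratio past 2-fold turned direction under these alternatives, but 6 values of smaller ones did: Cd40 in other R2 macrophages (0.10 at 5% mitochondrial), Cd86 in R1 macrophages (−0.02 without T cell transcripts), Icos in non-EM-like CD8+ T cells (−0.10 without the top cell), and Cd86, Icosl, and Cd40 in B cells (−0.31, 0.15, and 0.04 after thinning). Cd27 in EM-like CD8+ T cells, at 1.02 in the text, was 0.37 at 5% mitochondrial. Choices of cells added after seeing the data turned 2 ratios past 2-fold: Icos in non-EM-like CD4+ T cells was 0.32 with at least 3 T cell UMIs, and Cd27 in EM-like CD8+ T cells was −0.32 without NK marker cells, on 5 UMIs. The 4 receptor pairs past 2-fold higher became 2 without the cell with the most UMIs or with at least 50 UMIs, and the 4 lower became 2 with T cell transcripts and 5 after thinning. Ligand pairs higher, 0 in the text, became 2 after thinning (Cd80 in B cells at 2.13, Cd86 in M2-like R2 macrophages at 1.29), 1 less the median, and 1 with no filter and 0.5 added. The thinned Cd80 value had an interval of −3.58 to 5.77 and rested on only 3 WT and 1 Vsir-/- B cells with a UMI. The 1 ligand pair lower became 2 at 5% mitochondrial or without the top cell, and 0 after thinning or with at least 50 UMIs. Shares of all genes are given above only for the whole CD4+ and CD8+ T cell, B cell, and macrophage clusters and for non-EM-like CD4+ cells with a T cell transcript. No paired analysis was possible because each genotype has 1 library and the labels give no replicate numbers. Depth limits values resting on under 20 UMIs, and no setting supplies the missing replicates.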
